A study of Mus musculus with 12 samples.

Results

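The C/EBP (CCAAT/enhancer-binding protein) family of transcription factors was followed in mouse bone marrow-derived macrophages (BMDMs). The members were the rows carrying the symbols Cebpa, Cebpb, Cebpd, Cebpg, Cebpz and Ddit3, which gave 6 genes of the 11191 expressed rows and the 23847 rows in all. All 6 passed the expression filter, which asked for 1 FPKM or more in any sample. FPKM counts sequenced fragments relative to transcript length in kilobases and to the total that a sample mapped. Bone marrow of wild-type mice (C57BL/6 background), aged 8 to 12 weeks, was differentiated for 6 days with L929 supernatant, a source of macrophage colony-stimulating factor. The cells were then left untreated (control), kept for 24 h with 20 ng/ml IL-4, kept for 3 h with 100 ng/ml LPS, or given IL-4 first and LPS afterwards (IL-4+LPS). The LPS dose is that of the labels, and the study's methods give it in nM. The first agent is a cytokine of the type 2 response and LPS is a component of the bacterial cell wall. No gene was deleted and no transgene was carried in any of the 4 groups, and each group held 3 samples.

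C/EBP proteins carry a basic leucine zipper, bind DNA as dimers with one another, and share closely related DNA sites. C/EBPα, encoded by Cebpa, is needed to form granulocyte and monocyte progenitors, while C/EBPβ and C/EBPδ, encoded by Cebpb and Cebpd, are known for their induction in the acute-phase and inflammatory response. C/EBPγ (Cebpg) lacks a transactivation domain of its own and acts as a dimer partner, also of the stress factor ATF4, and CHOP (Ddit3) is a dimer partner made under endoplasmic reticulum stress. CEBPZ carries the family name but no leucine zipper of this kind, and belongs with the nucleolar proteins that assemble ribosomes.

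In mm10, Cebpa (plus strand) lay on chromosome 7 from base 35119293 to 35121931. Cebpg (minus strand) lay on the same chromosome from base 35046422 to 35056566, with 62.7 kb between the genes. Cebpb lay on chromosome 2 from base 167688915 to 167690418, Cebpd on chromosome 16 from base 15887286 to 15889545 and Ddit3 on chromosome 10 from base 127290793 to 127296288, all on the plus strand. Cebpz (minus strand) lay on chromosome 17 from base 78919003 to 78937070. GENCODE vM21 annotated Cebpb and Cebpd with transcripts of 1 exon, whereas the longest Cebpz transcript had 16.

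No promoter entry was found for Cebpd or Cebpz, so the windows below say nothing on their sites. RefSeq promoters (GRCm38.p6, from 250 bases before to 50 bases after the start) were found for 4 of the 6 members. They are shown because these members moved in opposite directions after LPS, Cebpb alone rising. They are chr7:35119043-35119342 on the plus strand for Cebpa, chr2:167688665-167688964 on the plus strand for Cebpb, chr7:35056517-35056816 on the minus strand for Cebpg and chr10:127290543-127290842 on the plus strand for Ddit3. Capitals mark the motifs found, read 5′ to 3′ on the gene's own strand.
Cebpa: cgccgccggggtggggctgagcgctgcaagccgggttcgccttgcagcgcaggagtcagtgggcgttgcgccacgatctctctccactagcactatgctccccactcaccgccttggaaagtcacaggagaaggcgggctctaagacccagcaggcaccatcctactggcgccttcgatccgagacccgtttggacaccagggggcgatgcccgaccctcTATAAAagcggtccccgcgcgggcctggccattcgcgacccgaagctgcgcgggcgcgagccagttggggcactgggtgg
Cebpb: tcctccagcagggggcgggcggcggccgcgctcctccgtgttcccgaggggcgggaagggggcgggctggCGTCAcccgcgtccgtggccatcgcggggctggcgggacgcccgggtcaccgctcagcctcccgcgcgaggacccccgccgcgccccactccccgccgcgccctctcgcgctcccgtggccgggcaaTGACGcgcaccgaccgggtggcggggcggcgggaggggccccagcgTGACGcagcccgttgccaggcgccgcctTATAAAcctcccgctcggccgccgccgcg
Cebpg: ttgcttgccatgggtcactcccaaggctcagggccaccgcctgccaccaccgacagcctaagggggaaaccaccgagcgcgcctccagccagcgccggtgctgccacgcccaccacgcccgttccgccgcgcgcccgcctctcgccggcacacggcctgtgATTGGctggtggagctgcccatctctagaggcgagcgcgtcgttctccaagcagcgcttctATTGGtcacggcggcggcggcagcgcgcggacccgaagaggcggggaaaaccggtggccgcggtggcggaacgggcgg
Ddit3: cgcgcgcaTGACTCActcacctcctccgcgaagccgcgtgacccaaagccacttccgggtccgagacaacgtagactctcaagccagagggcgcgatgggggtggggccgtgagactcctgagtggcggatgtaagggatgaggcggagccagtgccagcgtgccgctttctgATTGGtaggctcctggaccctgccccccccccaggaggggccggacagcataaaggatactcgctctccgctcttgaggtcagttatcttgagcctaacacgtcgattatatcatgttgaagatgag

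Motifs were searched on both strands. In Cebpb, TGACG, the core of the cyclic AMP response element, was matched 3 times, with first bases at -180 (on the minus strand), -53 and -7 relative to the start. At least 1 TGACG was held by 20.8% of 32851 RefSeq promoters of the same length. The full element TGACGTCA, which contains that core, was held by 1.79% and by none of the windows shown. All shares given here count promoters with at least 1 match, so they do not gauge repeated matches. Cebpg held the CCAAT box on the minus strand at -89 and -28, and Ddit3 held it on the minus strand at -77, against 37.4% of all promoters. Ddit3 also held an AP-1 site, TGANTCA, at -242 (7.81% of promoters). A TATA box, TATAAA, began at -30 in Cebpa and at 22 in Cebpb, downstream of the annotated start (13.6% of promoters). None of the 4 windows matched the C/EBP site TTGCNNAA (10.8%), the C/EBP-ATF site TGATGNAA (3.97%), the NF-kB site (0.411%), the GAS element TTCNNNGAA (8.3%), the STAT6 site (6.95%) or the ER stress element (0.119%). The ER stress element contains a CCAAT box. These matches are letters within a short window, and binding was not measured.

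The cells carried macrophage RNA, with 9 of 10 identity markers at 1 FPKM or more in at least 1 sample. The summed identity markers ran from 19470 to 20830 FPKM in control, 7706 to 7923 in IL-4, 15550 to 16830 in LPS and 6602 to 7002 in IL-4+LPS, of which lysozyme (Lyz2) made up the greater part. Of 13 neutrophil markers, 1 stayed under 1 FPKM throughout, and their sums ran from 421.7 to 1014, 288.5 to 494.7, 624.9 to 1230 and 545.4 to 1015 FPKM in the same order. These sums, in which S100a8 and S100a9 were the largest parts, were lowest in replicate 1 within every group. Not every marker followed, as Csf3r and Mmp8 were highest in replicate 1 in control, IL-4 and IL-4+LPS. Sums of 7 dendritic cell markers lay between 0.576 and 3.75 FPKM, and 5 of the 7 stayed under 1 throughout. Sums of 7 eosinophil, basophil and mast cell markers lay between 6.01 and 21.8 FPKM, with 4 of the 7 under 1. All 6 lymphoid and all 6 fibroblast markers stayed under 1 FPKM in every sample. The part of these markers in the C/EBP values was not tested, and in bulk samples fewer cells of a type and less RNA per cell cannot be told apart.

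The samples of replicate 1 stood apart. A component with 28.2% of the within-group variance placed them at 15.5 to 33.3 and the other samples at -18.6 to -4.45. Results are therefore also given for replicates 2 and 3 only (n = 2 per group), a fit added after the data had been seen. Leaving out the samples seen to differ narrows the spread by selection. The SE of Cebpa in IL-4 minus control, for example, went from 0.34 to 0.07. Calls gained in this fit are therefore no independent support. Relative depth ran from 0.99 to 3.3 with control replicate 1 set to 1, and the number of fragments behind a value is unknown. The paper describes its RNA-seq of these treatments as averages of 3 animals taken over 2 experiments. The labels do not say what the replicate number marks or which experiment a sample came from. The p-values therefore measure the spread between these samples. Fold changes below are differences of log2(FPKM + 1), which understates the change of low genes. They come with the standard error (SE) and an adjusted p from limma with the Benjamini-Hochberg method over all tested rows.

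After LPS alone Cebpb and Cebpd rose, and Cebpa, Cebpg and Ddit3 fell. Cebpz was lower by no more than the median row and was not called under 2 other scalings. In the fit to the values as deposited all 6 members passed the test and in all 6 the LPS and control samples did not overlap. Of all tested rows, 74.6% passed in this comparison, 16.9% as higher and 57.7% as lower, and the groups did not overlap in 76.6%. A count of 6 of 6 is therefore close to what the rows in general gave, and the 2 members higher and 4 lower stand beside those shares. The median row had a log2 fold change of -0.44. It moved to -0.12 under quantile normalization and -0.14 under median scaling, where the share of calls that were higher went from 22.6% to 40.2% and 40%.

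Cebpa was the most abundant member in resting cells. Its control values were 71.4, 73.2 and 66.2 FPKM in replicates 1 to 3, and its LPS values were 18.3, 7.33 and 8.09 FPKM. Every LPS sample was far below every control sample, and LPS replicate 1 was the highest of its group. The mean level went from 70.3 ± 3.64 to 11.2 ± 6.10 FPKM (SD, n = 3), 6.26-fold lower, with a log2 fold change of -2.65 (SE 0.34, adjusted p = 3.73e-05). Relative to the median row it was -2.21. With replicates 2 and 3 only the log2 fold change was -3.02. Among rows of at least 1 FPKM, the mean level of Cebpa stood at percentile 90.4 in control and 54.7 in LPS.

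Cebpb, first described as a nuclear factor of the IL-6 gene, had control values of 59.0, 27.8 and 25.4 FPKM and LPS values of 112.0, 118 and 112 FPKM. The LPS samples were tightly grouped above all control samples, while control replicate 1 lay well above the other two. The mean went from 37.4 ± 18.8 to 114 ± 3.42 FPKM (SD, n = 3), a 3.05-fold rise and a log2 fold change of 1.69 (SE 0.29, adjusted p = 0.00035). With replicates 2 and 3 only it was 2.08, and in that fit all 6 members passed with the directions given here, beside 82.3% of all rows.

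Cebpd moved most in the family. Control samples gave 7.16, 6.12 and 5.83 FPKM, and LPS samples gave 87.8, 133 and 135 FPKM, replicate 1 being the lowest. No control sample came near an LPS sample. The mean rose 18.6-fold, from 6.37 ± 0.70 to 119 ± 26.8 FPKM (SD, n = 3), with a log2 fold change of 4.0 (SE 0.31, adjusted p = 9.47e-07), and its percentile among expressed rows went from 34.2 to 93.2.

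The dimer partners fell. Cebpg gave 15.9, 14.1 and 14.2 FPKM in control against 7.90, 6.18 and 6.36 FPKM in LPS, with no overlap. Its mean level was 2.16-fold lower, a log2 fold change of -1.01 (SE 0.17, adjusted p = 0.000242). Ddit3 gave 37.6, 25.5 and 26.6 FPKM in control against 14.6, 6.49 and 6.61 FPKM in LPS, again without overlap, and replicate 1 was the highest in both groups. Its mean level was 3.24-fold lower, with a log2 fold change of -1.66 (SE 0.41, adjusted p = 0.00382).

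Cebpz, a gene of ribosome assembly, changed least. Its values were 7.59, 6.65 and 7.50 FPKM in control and 4.77, 5.01 and 5.55 FPKM in LPS, a 1.42-fold lower mean. The log2 fold change was -0.43 (SE 0.12, adjusted p = 0.00601), which differed from the median row by 0.01, and it was not called after quantile normalization (0.03, adjusted p = 0.811) or median scaling (-0.11, adjusted p = 0.395). In these units Cebpz therefore moved with the bulk of the rows.

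**Figure D1:**
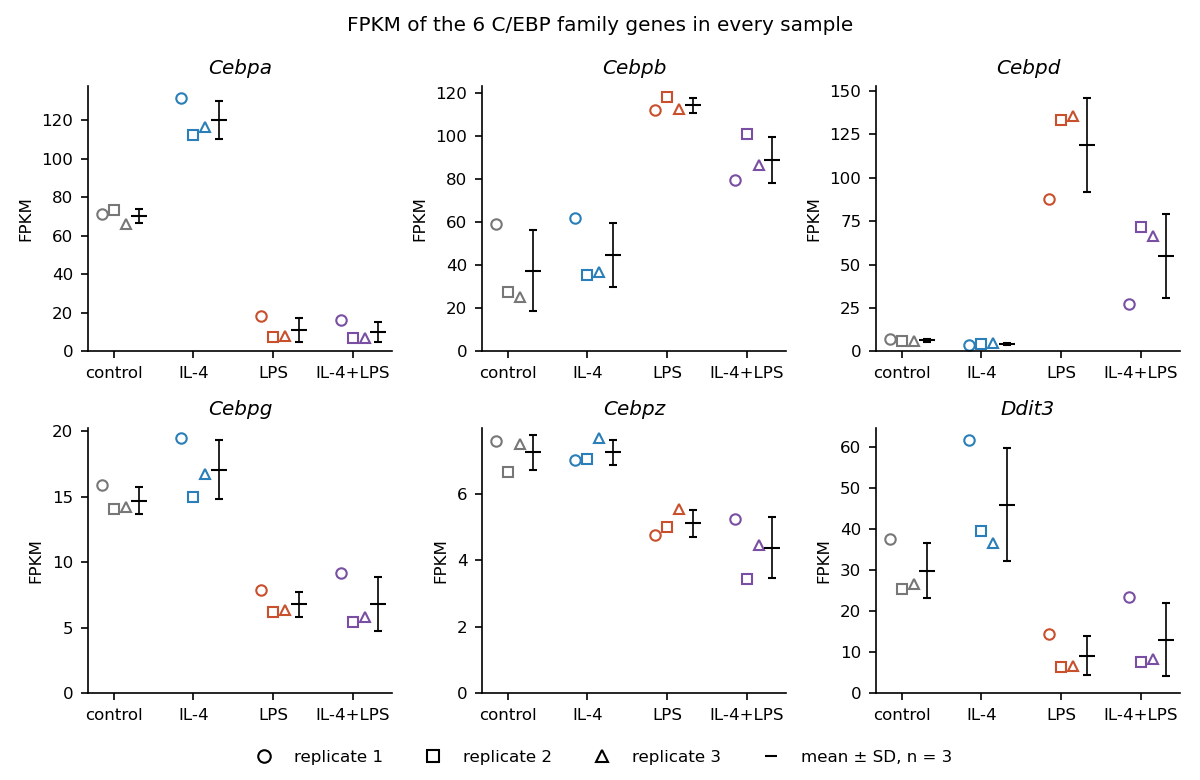
FPKM (linear axis from 0) of the 6 genes in the 4 groups, with 1 point per sample and the mean and SD of 3 samples. Cebpb and Cebpd were high in both LPS-exposed groups, and Cebpa, Cebpg and Ddit3 were low in them.

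IL-4 alone was then compared with control. None of the 6 members passed the test, against 37% of all tested rows (16% higher, 21% lower). At an unadjusted p under 0.05, 1 member passed, Cebpa, and at least those 37% of all rows did. Groups did not overlap for 2 members, Cebpa and Cebpd, against 51.6% of all rows.

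The IL-4 samples held 131, 113 and 116 FPKM of Cebpa, all above the 3 control samples, and their mean of 120.1 ± 9.97 (SD, n = 3) was 1.71-fold that of control. The log2 fold change was 0.76 (SE 0.34, 95% confidence interval 0.02 to 1.51, adjusted p = 0.103). Its spread was taken over all 4 groups, and with only the control and IL-4 groups in the fit the same difference had adjusted p = 0.0012. It also passed without LPS replicate 1 (adjusted p = 0.0374), without IL-4+LPS replicate 1 (adjusted p = 0.0411) and with replicates 2 and 3 only (0.71, adjusted p = 0.000305).

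Cebpd had values of 3.93, 4.19 and 4.64 FPKM after IL-4, all below control, and a mean 1.5-fold lower. Its log2 fold change was -0.49 (SE 0.31, interval -1.17 to 0.19, adjusted p = 0.246), with adjusted p = 0.0125 from the compared groups alone, 0.0314 without IL-4+LPS replicate 1 and 0.0033 with replicates 2 and 3 only. Ddit3 stood at 61.8, 39.6 and 36.5 FPKM after IL-4, overlapping control through control replicate 1. Its log2 fold change of 0.59 (SE 0.41, adjusted p = 0.3) passed with replicates 2 and 3 only (0.53, adjusted p = 0.000917).

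Cebpb gave 61.7, 35.2 and 37.0 FPKM after IL-4, with replicate 1 high as in control. The log2 fold change of 0.31 (SE 0.29, adjusted p = 0.447) turned on both samples of replicate 1. It was 0.68 without control replicate 1 (adjusted p = 0.0332) and 0.06 without IL-4 replicate 1 (adjusted p = 0.902), and other single samples left it between 0.09 and 0.45. The fit of replicates 2 and 3 only gave 0.43 (adjusted p = 0.00573). Cebpg (0.20, interval -0.17 to 0.57, adjusted p = 0.393) and Cebpz (0.00, interval -0.26 to 0.26, adjusted p = 1) were not called. In the fit of replicates 2 and 3 only, 4 of 6 members passed, 3 higher and 1 lower, beside 50.9% of all rows.

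LPS was next compared within IL-4-pretreated cells, using samples that the comparison of LPS with control did not share. Both comparisons took their spread from the same fit to all 12 samples, so their p-values are not independent. All 6 members passed again, beside 72.9% of all rows (15% higher, 57.9% lower), and no group overlapped, beside 74.6% of rows. Cebpa went from 120.1 ± 9.97 to values of 16.1, 6.77 and 7.15 FPKM, 12.0-fold lower in the mean. Its log2 fold change was -3.56 (SE 0.34, adjusted p = 5.16e-06). Cebpg was 2.5-fold lower (-1.23, SE 0.17, adjusted p = 6.81e-05), Ddit3 was 3.51-fold lower (-1.87, SE 0.41, adjusted p = 0.002) and Cebpz was 1.65-fold lower (-0.63, SE 0.12, adjusted p = 0.000624). The Cebpz call was lost under quantile normalization (-0.19, adjusted p = 0.123), under which the median row moved from -0.41 to -0.15. The share of calls that were higher went from 20.6% to 37.1% under that scaling and to 39.3% under median scaling.

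Both inducible members rose in IL-4-pretreated cells as well. Cebpb reached 79.4, 101 and 86.2 FPKM, 1.99-fold its IL-4 level, with a log2 fold change of 1.02 (SE 0.29, adjusted p = 0.00935). Cebpd reached 27.4, 71.7 and 66.2 FPKM, 12.9-fold its IL-4 level, with a log2 fold change of 3.30 (SE 0.31, adjusted p = 4.62e-06). In IL-4+LPS, replicate 1 was the lowest sample for both genes and the highest for Cebpa, Cebpg, Ddit3 and Cebpz. All 6 passed again with replicates 2 and 3 only, beside 81.3% of all rows.

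The effect of IL-4 pretreatment on the level reached under LPS was read from IL-4+LPS against LPS, which share samples with the comparisons above. Cebpd was the member that passed, 1 of 6 beside 30.9% of all rows (15% higher, 15.8% lower). Its mean of 55.1 ± 24.1 FPKM in IL-4+LPS was 2.16-fold lower than the 119 ± 26.8 FPKM in LPS (SD, n = 3), and every IL-4+LPS sample was below every LPS sample. The log2 fold change was -1.18 (SE 0.31, interval -1.87 to -0.50, adjusted p = 0.0141). It missed the threshold without LPS replicate 2 (-1.09, adjusted p = 0.0507), without LPS replicate 3 (-1.08, adjusted p = 0.0531) and with the 2 compared groups alone (adjusted p = 0.0864), and was -0.75 without IL-4+LPS replicate 1. With replicates 2 and 3 only it was -0.95 (adjusted p = 5.75e-05).

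Cebpb also did not overlap between these groups, beside 42.2% of all rows, its mean being 1.29-fold lower in IL-4+LPS. The log2 fold change was -0.37 (SE 0.29, interval -1.01 to 0.28, adjusted p = 0.387), with adjusted p = 0.0434 from the compared groups alone and 0.024 with replicates 2 and 3 only (-0.30). Cebpa was at 11.2 ± 6.10 in LPS and 9.99 ± 5.25 FPKM in IL-4+LPS (SD, n = 3), and its difference of -0.15 (interval -0.89 to 0.60, adjusted p = 0.793) lay within the replicate spread. Cebpg had means of 6.81 and 6.82 FPKM (-0.02, adjusted p = 0.944). Cebpz gave -0.19 (adjusted p = 0.243). Ddit3 gave 0.38 (SE 0.41, adjusted p = 0.535), with 23.4 FPKM in IL-4+LPS replicate 1 against 7.57 and 8.40 in the others. Without that sample the Ddit3 difference was -0.10. With replicates 2 and 3 only, 4 members passed beside 46.9% of all rows, with Cebpd, Cebpb and Cebpz (-0.35, adjusted p = 0.0459) lower and Ddit3 (0.25, adjusted p = 0.0215) higher. Cebpz also passed without IL-4+LPS replicate 1 (-0.31, adjusted p = 0.0466).

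The interaction asks whether the change with LPS differed between IL-4-pretreated cells and cells without pretreatment (pretreated minus not). It passed for 0 of 6 members in limma, beside 9.2% of all rows (4.58% higher, 4.63% lower). At an unadjusted p under 0.05 it passed for 0 members, and at least those 9.2% of all rows passed. The estimates were -0.91 for Cebpa (SE 0.48, interval -1.96 to 0.15, adjusted p = 0.285), -0.67 for Cebpb (SE 0.41, interval -1.59 to 0.24, adjusted p = 0.374) and -0.70 for Cebpd (SE 0.43, interval -1.66 to 0.26, adjusted p = 0.381). With 1 sample left out they ran from -1.28 (without IL-4+LPS replicate 1) to -0.53 (without LPS replicate 1) for Cebpa and from -1.05 (without control replicate 1) to -0.42 (without IL-4 replicate 1) for Cebpb. For Cebpd they ran from -0.94 (without IL-4+LPS replicate 2) to -0.27 (without IL-4+LPS replicate 1), and no such fit gave a call. A reduced response of Cebpb and Cebpd, or a deeper fall of Cebpa, was thus not separable from the replicate spread over all 12 samples. Cebpg (-0.22), Cebpz (-0.19) and Ddit3 (-0.21) had estimates nearer to 0, with adjusted p of 0.637, 0.538 and 0.881. With replicates 2 and 3 only, Cebpa (-0.84, adjusted p = 0.00194), Cebpb (-0.73, adjusted p = 0.00642) and Cebpd (-0.59, adjusted p = 0.00483) passed as lower, 3 of 6 beside 25.6% of all rows.

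**Figure D2:**
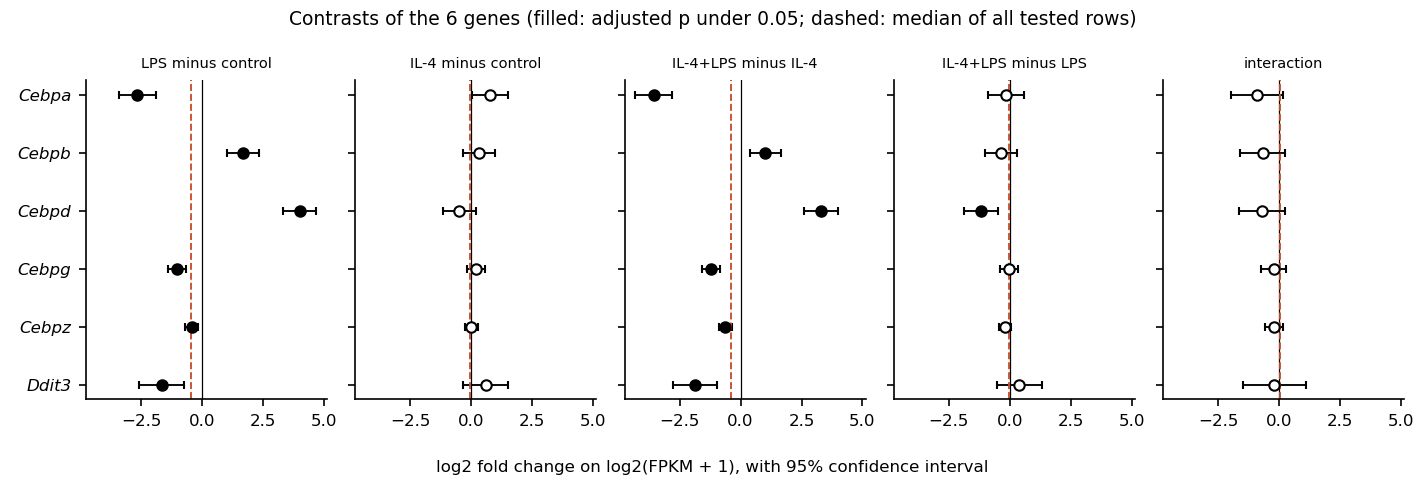
Log2 fold change on log2(FPKM + 1) of the 6 genes in the 5 contrasts, with 95% confidence intervals, filled where the adjusted p was under 0.05 and with a dashed line at the median of all tested rows. All 6 genes were called in both LPS contrasts, Cebpd was the 1 call in IL-4+LPS minus LPS, and no gene was called in the other contrasts.

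The balance between members was read within each sample, where scaling between samples has no part. Of the summed FPKM of Cebpa, Cebpb, Cebpd and Cebpg, the share of Cebpa was 46.5%, 60.4% and 59.3% in control replicates 1 to 3, 60.7%, 67.4% and 66.6% in IL-4, 8.1%, 2.8% and 3.1% in LPS, and 12.2%, 3.7% and 4.3% in IL-4+LPS. Cebpa was thus the largest share in all 6 samples without LPS and never above the 12.2% of IL-4+LPS replicate 1 in the 6 with it. The share of Cebpd was 4.7% to 5.2% in control, 1.8% to 2.7% in IL-4, 38.9% to 51.6% in LPS and 20.7% to 40.0% in IL-4+LPS.

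The inducible members were also set against each other. In LPS, Cebpd exceeded Cebpb in replicates 2 and 3 and not in replicate 1, with Cebpd-to-Cebpb ratios of 0.784, 1.13 and 1.20. In IL-4+LPS the ratios were 0.345, 0.712 and 0.767, so Cebpb led in all 3 samples and the groups did not overlap. Without LPS the ratios were 0.121, 0.221 and 0.230 in control and 0.0637, 0.119 and 0.125 in IL-4, and these groups overlapped through control replicate 1. The Cebpb-to-Cebpa ratio was 0.379 to 0.826 in control, 0.313 to 0.470 in IL-4, 6.13 to 16.1 in LPS and 4.95 to 14.9 in IL-4+LPS. For Ddit3 against Cebpb the ratio was 0.638 to 1.05 in control and 0.055 to 0.130 in LPS. These ratios are given as values without a test.

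**Figure D3:**
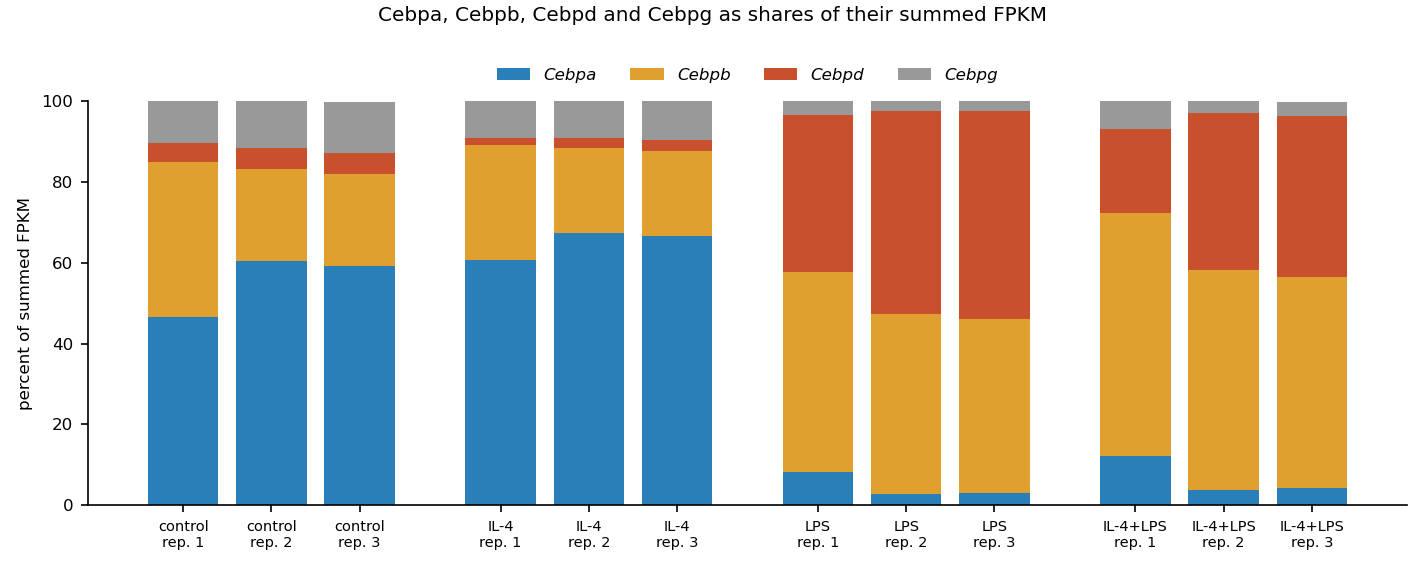
Percent of the summed FPKM of Cebpa, Cebpb, Cebpd and Cebpg taken by each gene, as 1 stacked bar per sample in the 4 groups of 3. Cebpa took the largest part of every bar without LPS, and Cebpb and Cebpd together took most of every bar with LPS.

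Ordered by FPKM, control cells held Cebpa above Cebpb (37.4 ± 18.8) and Ddit3 (29.9 ± 6.70), then Cebpg (14.7 ± 1.02), Cebpz (7.25 ± 0.52) and Cebpd (6.37 ± 0.70). Cebpb and Ddit3 overlapped in their samples, as did Cebpz and Cebpd. In IL-4 the order was Cebpa, Ddit3 (46.0 ± 13.8), Cebpb (44.6 ± 14.8), Cebpg (17.1 ± 2.28), Cebpz (7.24 ± 0.37) and Cebpd (4.25 ± 0.35), with Ddit3 and Cebpb overlapping. After LPS the order began with Cebpd and Cebpb, whose samples overlapped, and went on with Cebpa (11.2 ± 6.10), Ddit3 (9.23 ± 4.65), Cebpg (6.81 ± 0.95) and Cebpz (5.11 ± 0.40 FPKM; all SD, n = 3), of which Cebpa, Ddit3 and Cebpg overlapped as neighbours. In IL-4+LPS, Cebpb (88.7 ± 10.8) stood above Cebpd (55.1 ± 24.1) in all samples, and Ddit3 (13.1 ± 8.90), Cebpa (9.99 ± 5.25) and Cebpg (6.82 ± 2.03) overlapped above Cebpz (4.38 ± 0.91 FPKM). Cebpe, the family gene of late granulocyte maturation and not a member here, ran from 0.0809 to 1.56 FPKM, reached 1 FPKM in 2 of 12 samples and was called in none of the 5 contrasts.

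Likeness of pattern was described by Pearson r of log2(FPKM + 1) over the 12 samples, among 5246 rows with a mean of at least 10 FPKM. The 12 values fall into 4 groups that many rows separate, so r chiefly restates the group differences. Cebpa was most like Abcg1 (0.995), which encodes a sterol transporter, Bin2 (0.994) and Pacs2 (0.992). Cebpb was most like Marcks (0.959), Cpsf2 (0.947) and Ifi204 (0.945), lower values than for the other members. Cebpd was most like Fam177a (0.997), 1700047I17Rik2 (0.997) and Tnip1 (0.995), the last encoding an inhibitor of NF-kB signaling. Cebpg was most like Dars (0.997), Dennd4c (0.995) and Lactb (0.994), and Ddit3 like Nars (0.988), Thumpd3 (0.987) and Cltc (0.985); Dars and Nars both encode cytoplasmic aminoacyl-tRNA synthetases. Cebpz was most like Polr2b (0.973), Aqr (0.964) and Ash2l (0.957).

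Protein-coding genes on the opposite strand overlap 4 members in GENCODE vM21, and the library kit does not mark strand, so reads of the shared part cannot be assigned with certainty. Cebpa and Cebpg overlap antisense transcripts by 51 and 4 exonic bases, and Cebpg shares 73 exonic bases with Gm44836 on its own strand. Tmem189 shares 20.7% of the exonic bases of Cebpb, although the 2 loci do not overlap in the deposited tables. Its means of 97.7, 105, 39.3 and 47.7 FPKM in control, IL-4, LPS and the combined group were lower with LPS, where Cebpb was higher. From control to IL-4 the means of both were higher. Spidr, listed as 2310008H04Rik, shares 15% of Cebpd and stayed between means of 2.98 and 4.87 FPKM. Mars shares 4% of Ddit3, and its means of 12.1, 16.6, 7.11 and 8.11 FPKM had the same order over the groups as those of Ddit3. Cebpzos, listed as 1110001A16Rik, shares 3.7% of the exonic bases of Cebpz, and the loci overlap by 2046 bases in the deposited tables. Its means were 4.42, 4.86, 1.92 and 2.0 FPKM, lower with LPS as those of Cebpz were. The part of these reads in the member values was not tested. Words of 50 bases were taken from the longest transcript of each member. Of these, 18.1% in Cebpb, 13.9% in Cebpd, 2.88% in Cebpz, 0.116% in Cebpa and none in Cebpg or Ddit3 also occurred in another gene. Exonic bases outside that transcript were not searched.

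Known targets of C/EBPα or C/EBPβ in myeloid cells were taken from a list of 34 genes, all tested. The list was written with inflammatory genes known to answer LPS, and it gives no independent evidence of direction. Over all rows, 74.6% were called with LPS, 37% with IL-4 and 72.9% with LPS after IL-4. The shares were 30.9% in IL-4+LPS against LPS and 9.2% in the interaction. Counts of all 4 lists stand beside these shares. After LPS 25 rose and 5 fell, with a median log2 fold change of 2.63 beside -0.44 over all rows. Among them, Ptgs2, the inducible cyclooxygenase, rose by 7.70 (SE 0.38, adjusted p = 4.34e-08) and the acute-phase gene Saa3 by 7.77 (SE 0.68, adjusted p = 2.39e-06), while the mannose receptor Mrc1 fell (-0.80, SE 0.15, adjusted p = 0.000652). In IL-4-pretreated cells LPS gave 23 higher and 5 lower (median 2.44 beside -0.41). IL-4 alone gave 4 higher and 12 lower (median -0.54 beside -0.05), with Chi3l3, the chitinase-like Ym1, higher by 4.83 (SE 0.32, adjusted p = 2.13e-06). In IL-4+LPS against LPS, 5 were higher and 13 lower (median -0.47 beside -0.03). Saa3 was among the lower ones (-2.80, SE 0.68, adjusted p = 0.0101). Chi3l3 was among the higher ones (4.37, SE 0.32, adjusted p = 4.25e-06). So was Il6 (2.17, SE 0.32, adjusted p = 0.000525), chosen here after its values were seen. The interaction was called for 4 higher and 2 lower (median 0.15 beside 0.04), with 3 to 7 calls when 1 sample was left out.

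Regulators and partners of C/EBP proteins numbered 20 tested genes. LPS gave 5 higher and 10 lower, 15 of 20 beside 74.6% of all rows, with a median of -0.25. Quantile normalization gave 10 higher and 8 lower and median scaling 9 and 7, with a median of 0.09 in each. The IL-6 receptor chains, which signal through STAT3 to Cebpb and Cebpd, both fell: Il6ra by a log2 fold change of -2.82 (SE 0.17, adjusted p = 1.47e-07) and Il6st by -1.88 (SE 0.12, adjusted p = 2.94e-07), while Stat3 rose by 1.47 (SE 0.19, adjusted p = 3.98e-05). IL-4 gave 5 higher and 3 lower, 8 of 20 beside 37% of all rows (median -0.09, and 0.03 under quantile normalization). Il6st was higher (1.49, SE 0.12, adjusted p = 8.06e-06) and Il6ra lower (-0.91, SE 0.17, adjusted p = 0.00181). LPS after IL-4 gave 5 higher and 10 lower, 15 of 20 beside 72.9% of all rows (median -0.27). It gave 6 and 9 (median 0.08) under quantile normalization and 6 and 8 (median 0.04) under median scaling. IL-4+LPS against LPS gave 1 higher and 6 lower, 7 of 20 beside 30.9% of all rows (median -0.09). Il6st was higher (1.65, SE 0.12, adjusted p = 4.21e-06). Il6ra (-1.05, SE 0.17, adjusted p = 0.00082) and Stat3 (-0.86, SE 0.19, adjusted p = 0.00565) were lower. The part of these genes in the level of Cebpd was not tested. For the interaction 0 of 20 passed in limma, beside 9.2% of all rows (median -0.14). At an unadjusted p under 0.05, 5 passed, and the share of all rows at that threshold was not computed.

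Stress response genes around ATF4 and CHOP were 31 tested genes. They moved in both directions. After LPS, where Ddit3 fell, 15 rose and 11 fell (median 0.07 beside -0.44 over all rows). Quantile normalization gave 15 and 12 (median 0.12 beside -0.12), and median scaling gave 16 and 9 (median 0.44 beside -0.14). Nupr1, a stress-induced chromatin protein, rose by 4.97 (SE 0.28, adjusted p = 1.10e-07). The largest falls were those of Eif2ak3 (-1.53, SE 0.12, adjusted p = 1.34e-06), Sesn2 (-1.49, SE 0.13, adjusted p = 1.81e-06) and Eif2ak4 (-1.45, SE 0.1, adjusted p = 5.06e-07). Atf4 itself, chosen here after its values were seen, had means of 71.8 ± 2.22, 118 ± 2.52, 99.4 ± 3.65 and 104 ± 3.24 FPKM over the groups in the same order (SD, n = 3). It rose with LPS (0.46, SE 0.05, adjusted p = 1.92e-05) and with IL-4 (0.71, SE 0.05, adjusted p = 4.98e-06), and its interaction was -0.64 (SE 0.08, adjusted p = 0.000718). IL-4 gave 16 higher and 2 lower (median 0.37 beside -0.05). LPS after IL-4 gave 6 higher and 15 lower (median -0.30), but 9 and 14 (median -0.15) under quantile normalization and 12 and 11 (median -0.06) under median scaling. IL-4+LPS against LPS gave 9 higher and 4 lower (median 0.11), 13 calls that fell to 7 without LPS replicate 2 and to 8 without LPS replicate 3 or IL-4+LPS replicate 1. The interaction gave 0 higher and 7 lower (median -0.27), with 4 to 8 calls when 1 sample was left out.

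Nucleolar ribosome assembly genes, the group to which Cebpz belongs, were 27 tested genes. IL-4 gave 20 higher and 0 lower (13 higher without IL-4 replicate 3), with a median of 0.45 beside -0.05 over all rows and 0.00 for Cebpz. LPS gave 7 higher and 4 lower (median 0.15), with Nop58, a core protein of box C/D ribonucleoproteins, higher by 1.11 (SE 0.14, adjusted p = 2.75e-05). After quantile normalization it gave 16 higher and 0 lower (median 0.48), and after median scaling 15 and 2 (median 0.50). LPS after IL-4 gave 1 higher and 14 lower (median -0.28), which did not hold under other scalings, with 3 and 5 (median 0.05) after quantile normalization and 6 and 4 (median 0.06) after median scaling. Its 15 calls fell to 8 without IL-4 replicate 3 and to 9 without IL-4+LPS replicate 2. IL-4+LPS against LPS gave 2 higher and 2 lower (median -0.01). The interaction gave 0 higher and 8 lower (median -0.42 beside 0.04), with 3 to 9 calls when 1 sample was left out and Nop58 at -1.14 (SE 0.19, adjusted p = 0.00457).

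**Figure D4:**
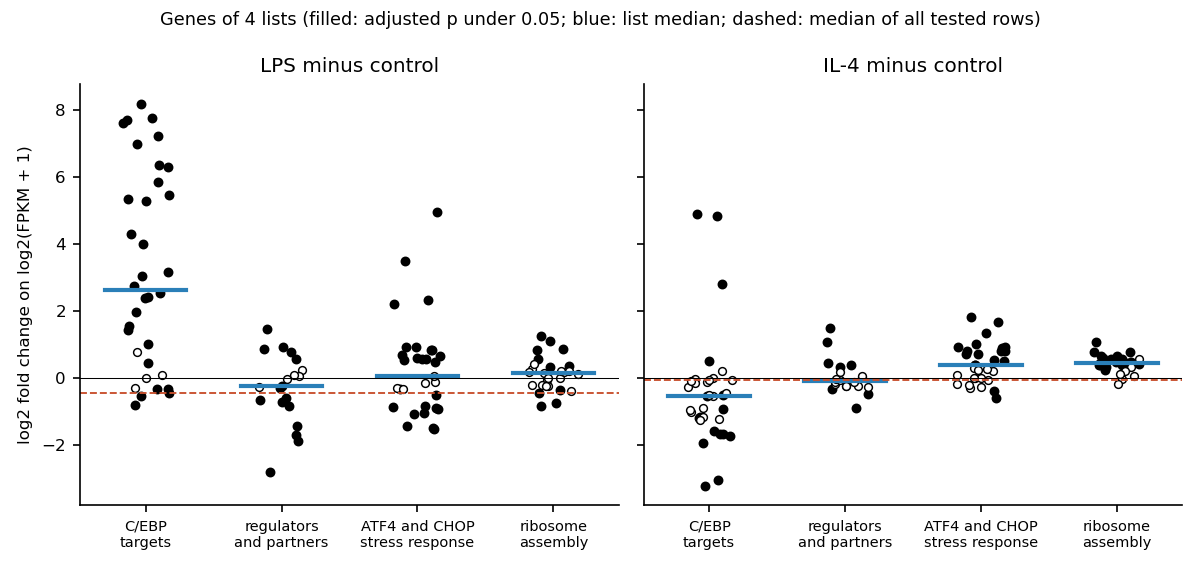
Log2 fold change on log2(FPKM + 1) of each gene of the 4 lists (known targets, regulators and partners, stress response, ribosome assembly) in LPS minus control and IL-4 minus control, filled where the adjusted p was under 0.05, with list medians in blue and the median of all tested rows dashed. Most targets lay above the dashed line after LPS (median 2.63), and most ribosome assembly genes lay above it after IL-4 (median 0.45).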

How the data were processed

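Poly-A selected RNA of 12 BMDM samples was sequenced as paired reads. The authors mapped reads to mm10 and deposited FPKM per gene, 1 table per sample, with replicates kept apart. The submitters' processing notes name TopHat2 2.0.7 and Cufflinks 2.0.2. The gene annotation was not given in the sources used here, and absolute depth is unknown (relative depth 0.99 to 3.3, from the steps of low values). No depth-based interval was formed. Since FPKM is a relative unit, genes that gain fragments lower the values of the rest.

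Following the study's filter, rows reaching 1 FPKM in any sample entered the tests. On log2(FPKM + 1), limma 3.58.1 (R 4.3.3) fitted a model of group means to all 12 samples (eBayes with an intensity trend), with Benjamini-Hochberg adjustment within each contrast and a threshold of 0.05. The script was tested on simulated data. Groups came from the labels. The replicate numbers pair no samples in the labels, and the study names no block for these data, so the main fit has none. Deviations from group means had a mean correlation of 0.124 over 18 same-number pairs (lowest 0.0024, highest 0.386, 11 over 0.1). Pairs with different numbers had a mean of -0.0596. Same-number samples were thus more alike than others, and a fit with a replicate block is among the alternatives.

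The members, gene lists and marker lists were chosen with earlier results of these data known. Named were all members in every contrast, Cebpe, up to 3 genes per list and direction with the largest change among those called, genes a sentence turns on, and the 3 rows most like each member. Alternatives were a pseudocount of 0.1, no filter, a filter of 3 samples, scaling by quantiles or by medians, no trend, only the compared groups, a replicate block, each sample left out, and replicates 2 and 3 only (added later). Promoters came from RefSeq GRCm38.p6, overlaps from GENCODE vM21. Plots were made in Python 3.11.15 with matplotlib 3.10.9.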

Additional observations from a re-analysis of the deposited data

How the results depend on the processing

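The number of members called in both LPS comparisons stayed at 5 or 6 under all alternatives run, the lost call being Cebpz. Over the 624 refitted values of the members, 584 kept their direction and side of the threshold and 15 changed sign. Of those that only crossed the threshold, 5 lost the call and 20 gained it. A change of sign was counted first, also for Cebpz in LPS minus control under quantile normalization, where the call was lost as well. For IL-4 minus control (0 members) the count was 2 with only the groups compared, 2 with the replicate block (Cebpa 0.76, adjusted p = 0.0267, and Ddit3 0.59, adjusted p = 0.0206, in limma), 4 with replicates 2 and 3 only, and 0 to 2 with 1 sample left out. For IL-4+LPS minus LPS (1 member) it was 4 with replicates 2 and 3 only and 0 to 2 with 1 sample left out. For the interaction (0 members) it was 3 with replicates 2 and 3 only. The block raised the calls over all rows for the interaction from 1030 to 2240, and replicates 2 and 3 only raised them to 2867, and for IL-4+LPS minus LPS from 3453 to 5252. The replicate numbers are not stated to pair the samples. The cause of these changes was not tested.

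Sign changes concerned differences not called in the main fit, except that of Cebpz in LPS minus control. Not all of them were small, as the main estimate of Ddit3 in IL-4+LPS minus LPS was 0.38. Quantile normalization gave 0.03 for Cebpz and 0.01 for Cebpe in LPS minus control and 0.02 for Cebpg in IL-4+LPS minus LPS. Replicates 2 and 3 only gave -0.06 for Cebpe in IL-4+LPS minus IL-4. With 1 sample left out, IL-4+LPS minus LPS ran from -0.51 to 0.24 for Cebpa, -0.23 to 0.10 for Cebpg and -0.10 to 0.73 for Ddit3. IL-4 minus control ran from -0.05 to 0.03 for Cebpz, IL-4+LPS minus IL-4 from -0.13 to 0.36 for Cebpe, and the interaction from -0.69 to 0.14 for Ddit3.

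Counts of list genes called also moved by over 1.5 times. With replicates 2 and 3 only, interaction calls went from 6 to 18 for targets, 0 to 6 for regulators, 7 to 13 for stress genes and 8 to 15 for ribosome assembly genes. In that fit IL-4 minus control went from 16 to 27 for targets and 8 to 13 for regulators, IL-4+LPS minus LPS from 7 to 14 for regulators and 4 to 10 for ribosome assembly genes, and LPS minus control from 11 to 18 for the last. The block gave 10 targets, 4 regulators and 11 stress genes in the interaction and 9 ribosome assembly genes in IL-4+LPS minus LPS. Quantile normalization gave 2 regulators in the interaction and 8 ribosome assembly genes in place of 15 in IL-4+LPS minus IL-4, median scaling 17 in place of 11 in LPS minus control, and the compared groups alone 8 stress genes in place of 13 in IL-4+LPS minus LPS. With 1 sample left out, interaction calls ran from 3 to 7 for targets, 0 to 2 for regulators, 4 to 8 for stress genes and 3 to 9 for ribosome assembly genes, and the other counts that moved as far were 7 to 13 stress genes in IL-4+LPS minus LPS and, for ribosome assembly, 13 to 21 in IL-4 minus control and 8 to 14 in IL-4+LPS minus IL-4. FPKM without fragment counts leaves the precision of low values such as those of Cebpe unknown.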
